A study of Mus musculus with 6 samples.

Results

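The cells described here were 80 dendritic cells carrying transcripts of Ccr7 and Fscn1, found among 26843 immune cells sorted from mouse mammary tumours. They were chosen from their own counts. A cell entered with at least 2 unique molecular identifier (UMI) counts of Ccr7 and at least 2 of Fscn1, at most 1 count summed over Cd3e, Cd3d and Cd3g, 0 counts of Cd79a and fewer than 10 counts summed over C1qa, C1qb and C1qc. These genes, and all values given for them, therefore describe the choice and are not findings. Ccl22, the remaining gene that marks such cells, was not used to choose them, and it was detected in 41 of the 80.

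The series concerns MERTK inhibition and cyclophosphamide in triple negative breast cancer, and it holds 6 single-cell libraries of live CD45+ cells from mammary tumour, 1 for each treatment label. The libraries labelled MRX, CTX and Combined, and those labelled ctxd18t and combod18t, were used, while the counts of the library labelled VC were not analysed here. The labels give for each library no more than that treatment name and the tissue, and they do not state the mouse strain, the age, the tumour line, the doses, or whether a library pooled animals. The shared protocol describes mice of day 7 treated 3 hours before harvest and names 18 for no library, so day 18 is read only from the names ctxd18t and combod18t. With 1 library for each label there was no replicate. No test between libraries was possible, and each interval below covers counting error only, at 95%.

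Dendritic cells take up antigen in tissues and present it to T cells. On maturation, by microbial products, cytokines or uptake of dying cells, they gain the chemokine receptor CCR7, which directs them through lymph vessels to the draining lymph node, and the actin-bundling protein fascin, encoded by Fscn1. Mature cells of this kind in tumours, also named mregDC or LAMP3+ DC, carry at the same time molecules that stimulate T cells (CD40, IL-12) and molecules that restrain them (PD-L1, encoded by Cd274, and PD-L2, encoded by Pdcd1lg2).

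Total counts of the 5 libraries ran from 39820290 to 100733879 UMIs, and the median kept cell from 6470 to 9170. The chosen cells were deeper, with medians of 9377 UMIs in MRX, 11571 in CTX and 12133 in Combined, with 18750 in ctxd18t, then 16868 in combod18t. Cell barcodes were shared between CTX and combod18t (34) and between Combined and ctxd18t (21), and by no other pair. None of the shared barcodes was a chosen cell in either library, so leaving them out removes none of the 80. Scrublet's automatic threshold marked under 0.5% of cells in every library, too few to count as working, and none of the 80 lay among the highest 5% of its scores. Over 3 times the median UMI count of their library was held by 3 of the 80.

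The label was checked against dendritic cell genes that the choice did not use, and against markers of other cells. Cst3, abundant in dendritic cells, was detected in 80 of 80 cells, and Zbtb46, a transcription factor of the classical dendritic lineage, in 65. Flt3, the receptor that sustains dendritic cell development, was detected in 62. No background share of Cst3, Zbtb46 or Flt3 in cells of other kinds is given here. Of the markers of other cells, fibroblast genes were at 0 for 5 of 5 genes, and B cell genes summed to 42.1 per 1000000 counts (CPM) over all 80 cells, with none in 55 cells. T cell genes summed to 48.4 CPM, and to 45.7 CPM without the Cd3 genes that the choice limited. Natural killer cell genes summed to 28.7 CPM, with none in 73 cells. Macrophage genes summed to 1083 CPM, and to 1034 CPM without the C1q genes that the choice limited, most of it Lyz2: 9 cells held at least 20 Lyz2 counts, 1 in MRX, 2 in CTX and 3 in Combined, with 3 in ctxd18t, then 0 in combod18t. Lyz2 was not particular to these cells: it was seen in 30 of the 80, and in 78 of the 93 conventional dendritic cells described below. Neutrophil genes summed to 243 CPM and were at 0 in 63 cells. S100a9 came to 176 counts in 1 CTX cell alone. Plasmacytoid genes summed to 609 CPM, with Ly6d and Cox6a2 at 0, and epithelial genes to 46.6 CPM, with none in 66 cells. The part of other cells' RNA in the results was not tested, except that results without the 9 Lyz2-rich cells are given below.

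Inside the threshold, 5 cells had 2 or 3 Ccr7 counts and 13 had 2 or 3 Fscn1 counts. Just outside lay 4 cells with 1 Ccr7 count and at least 2 of Fscn1, and 13 with 1 Fscn1 count and at least 2 of Ccr7. Another 517 cells that met all other conditions had at least 2 Ccr7 counts and none of Fscn1, and 28 had at least 2 of Fscn1 and none of Ccr7. In the 517 Cacnb3 was at 5.62 CPM against 314 CPM in the chosen cells, Ccl22 at 33.9 against 393 and Il4i1 at 56.0 against 596. The gap was smaller for Cd274 (316 against 639), Relb (209 against 632), Ccl17 (126 against 463) and Zbtb46 (73.4 against 247). With a minimum of 1 count of each gene 99 cells would have been chosen.

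The promoters of 4 genes are shown because their transcripts separate these cells from other dendritic cells, and because the NF-kappaB family, whose subunit RelB has a known part in dendritic cell maturation, is described with them. Each stretch runs from 250 bases before to 50 bases after the start site, from RefSeq on GRCm38.p6, a build other than the GRCm39 that the submitters' processing notes name. Capitals mark matches of the NF-kappaB consensus on either strand, where neighbouring matches overlap and run together. Ccl22 lies at chr8:94745434-94745733 and Ccl17 at chr8:94810203-94810502, both on the plus strand. Il2ra lies at chr2:11642542-11642841 on the plus strand and H2-M2 at chr17:37483505-37483804 on the minus strand.
Ccl22: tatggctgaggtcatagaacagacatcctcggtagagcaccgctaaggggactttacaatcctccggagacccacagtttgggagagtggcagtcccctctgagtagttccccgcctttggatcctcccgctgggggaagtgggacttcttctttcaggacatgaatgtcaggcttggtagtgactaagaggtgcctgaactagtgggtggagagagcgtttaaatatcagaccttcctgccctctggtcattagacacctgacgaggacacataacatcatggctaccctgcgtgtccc
Ccl17: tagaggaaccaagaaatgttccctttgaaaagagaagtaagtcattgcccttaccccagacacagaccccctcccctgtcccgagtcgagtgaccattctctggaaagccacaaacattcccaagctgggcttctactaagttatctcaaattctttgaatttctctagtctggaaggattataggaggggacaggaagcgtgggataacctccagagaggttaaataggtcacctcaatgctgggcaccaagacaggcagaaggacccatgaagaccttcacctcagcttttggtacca
Il2ra: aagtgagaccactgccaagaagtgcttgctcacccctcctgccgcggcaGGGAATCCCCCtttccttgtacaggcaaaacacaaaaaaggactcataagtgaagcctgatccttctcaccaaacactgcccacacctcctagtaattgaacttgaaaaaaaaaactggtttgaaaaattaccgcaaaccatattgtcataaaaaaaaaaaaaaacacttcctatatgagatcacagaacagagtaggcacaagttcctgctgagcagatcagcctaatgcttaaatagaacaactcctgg
H2-M2: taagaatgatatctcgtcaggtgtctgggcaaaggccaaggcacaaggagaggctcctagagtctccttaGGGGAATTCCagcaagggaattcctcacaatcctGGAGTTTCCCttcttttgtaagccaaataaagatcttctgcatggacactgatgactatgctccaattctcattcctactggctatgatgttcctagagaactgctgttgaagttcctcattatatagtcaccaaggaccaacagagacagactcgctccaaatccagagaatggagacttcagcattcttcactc
The consensus was present in Il2ra, with its first base at position -201, and in H2-M2, at positions -180 and -146. It was not found in the stretches of Ccl22 and Ccl17. Of the 12 genes highest in these cells, 8 had 10 promoters in the table, of which 2 held a match, and 4.51% of all 32851 promoters of that length did. Of the 12 lowest genes, 9 had 17 promoters and 1 of these, of Tlr3, held a match. Ccr7, Ccl5 and Relb were not in the table. These matches are letters in a window and show no binding.

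The cells were rare in every library. They made up 12 of 5440 kept cells in MRX (0.221%, exact binomial interval 0.114 to 0.385), 33 of 8898 in CTX (0.371%, 0.255 to 0.520) and 10 of 4476 in Combined (0.223%, 0.107 to 0.410). In the libraries named for day 18 they were 19 of 4011 in ctxd18t (0.474%, 0.285 to 0.739) and 6 of 4018 in combod18t (0.149%, 0.0548 to 0.325). The highest share was thus that of ctxd18t and the lowest that of combod18t, and the intervals of MRX, CTX and Combined overlapped.

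Combined minus CTX was -0.147 percentage points, with a Newcombe interval from -0.328 to 0.0682 that holds 0. The difference of combod18t minus ctxd18t was -0.324 points (-0.601 to -0.0794). That contrast depends on the base of the share: a smaller part of combod18t had fewer than 2 Cd3 counts, and among such cells the shares were 0.559% (6 of 1074) and 0.814% (19 of 2334), a difference of -0.255 points (-0.801 to 0.462). CTX minus MRX was 0.150 points (-0.0459 to 0.327). Under a gate with no count of T, B or C1q genes CTX kept 18 cells and MRX 11, at 0.202% each, and Combined kept 5 (0.112%).

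A second base was the dendritic cells themselves. Conventional dendritic cells were gated by a Flt3 count with at least 2 counts of Xcr1 and Clec9a together for type 1 (cDC1), or with at least 2 of Cd209a and none of those for type 2 (cDC2), and with at most 1 Ccr7 count. Of the 315 cells so gated, 222 (70.5%) also held at least 2 counts of the plasmacytoid genes Siglech, Ccr9 and Cox6a2, and Siglech stood at 1223 CPM in these against 1.79 CPM in the Ccr7 cells. The other 93 cells, without plasmacytoid genes, 65 cDC1-gated and 28 cDC2-gated, were therefore taken as the reference after the values were seen, and the counts of each list against all 315 are given after the lists. The 93 are called cDC below.

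The Ccr7 cells made up 12 of 45 of the sum of both kinds in MRX (26.7%, 14.6 to 41.9), 33 of 48 in CTX (68.8%, 53.7 to 81.3) and 10 of 22 in Combined (45.5%, 24.4 to 67.8). In ctxd18t they were 19 of 47 (40.4%, 26.4 to 55.7) and in combod18t 6 of 11 (54.5%, 23.4 to 83.3). CTX exceeded MRX by 42.1 points (22.0 to 57.6). This difference moved with fewer cDC in CTX, which were 0.169% of kept cells against 0.607% in MRX, a difference of -0.438 points (-0.691 to -0.232). Combined exceeded MRX by 18.8 points (-4.67 to 41.4), an interval that holds 0. Against all 315 gated cells the CTX minus MRX difference was 18.9 points (8.77 to 28.7). With a single library for each label, treatment and library cannot be told apart in any of these contrasts.

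**Figure D1:**
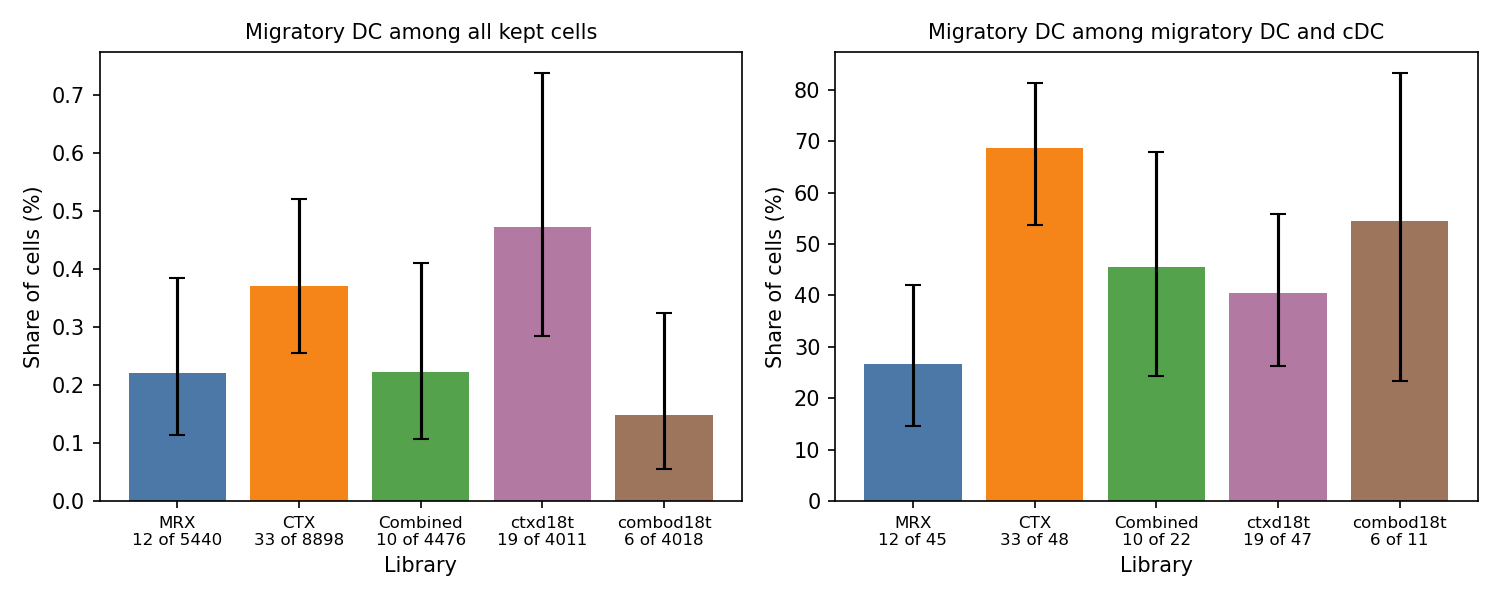
Share of Ccr7 and Fscn1 dendritic cells in each library (bars, in percent; error bars are exact 95% binomial intervals that cover counting error only), among all kept cells on the left and among these cells plus cDC on the right. On the left ctxd18t is highest at 0.474% and combod18t lowest at 0.149%; on the right CTX is highest at 68.8% and MRX lowest at 26.7%.

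Against the 93 cDC, the Ccr7 cells held more RNA of most listed genes of maturation and NF-kappaB and of the chemokines Ccl22, Ccl17 and Ccl5. They also held less of most listed genes of cDC1, though 65 of the 93 were gated as cDC1, so this partly describes the reference. Levels are CPM of the counts summed over cells, and differences are log2 ratios of CPM plus 1. Of 3797 genes with at least 100 counts in all and 50 CPM on a side, leaving out the gating genes, 508 were at least 2-fold higher (13.4%) and 616 at least 2-fold lower (16.2%). The median over all genes tested was -0.21. Against all 315 gated cells, 547 of 4185 were higher (13.1%) and 943 lower (22.5%). Median-of-ratios scaling shifts every ratio against the 93 cDC by 0.21 upward and gave 635 higher and 434 lower, so the balance of higher against lower calls depends on the scaling. The direction was the same in 5 of 5 libraries for 454 of the 508 and 518 of the 616.

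Ccl22, which draws CCR4-bearing T cells such as regulatory T cells, was at 77.8 CPM in MRX, 249 in CTX and 1238 in Combined, with 200 in ctxd18t, then 789 in combod18t. It had 438 counts in the Ccr7 cells and 0 in cDC, which makes it at least 197-fold higher against a floor of 3 counts over the cDC group. Ccl17, the other CCR4 ligand, was at 95.1, 302, 2607, 32.4 and 167 CPM in the same order of libraries, and its log2 ratio was 5.80 (5.13 to 6.99). In Combined 1 cell held 128 of 171 Ccl22 counts and 276 of 360 Ccl17 counts, and in combod18t 1 cell held 60 of 90 Ccl22 counts.

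Ccl5, a chemokine that attracts T cells, stood at 3120 CPM in MRX, 1424 in CTX and 2694 in Combined, with 3566 in ctxd18t, then 237 in combod18t, against 28.0 CPM in cDC. Its log2 ratio was 6.34 (5.95 to 6.87), and combod18t was far below the other libraries. Cxcl16, the ligand of CXCR6, differed by 1.34 (1.14 to 1.54). In the list of 12 chemokines, 8 were expressed, of which 5 were higher and 1, Ccl4, was lower, with a list median of 1.67 against -0.21 for all genes.

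Of 17 listed genes of maturation, Ccr7 and Fscn1 had chosen the cells, Lamp3 was listed with 0 counts, and 11 of the other 14 were at least 2-fold higher and none lower, with a median of 3.88. Cacnb3, a calcium channel subunit, was at 225 CPM in MRX, 233 in CTX and 434 in Combined, with 405 in ctxd18t, then 228 in combod18t, against 3 counts in all cDC. Marcksl1, an actin regulator, differed by 4.24 (3.95 to 4.60), and Cd63, a tetraspanin of late endosomes, by 5.73 (5.24 to 6.44). Socs2, a suppressor of cytokine signalling, differed by 7.33 (6.27 to 11.18), on 2 counts in cDC. The 3 that missed 2-fold were the costimulatory genes Cd80 (0.96), Cd86 (0.40) and Cd83 (0.52), which cDC already held. Against all 315 gated cells these 3 passed 2-fold, at 1.96, 1.32 and 1.64, and median-of-ratios scaling takes Cd80 past it.

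Mreg, which encodes melanoregulin, a protein of vesicle transport, was at 415, 329, 304, 753 and 412 CPM in MRX, CTX, Combined, ctxd18t and combod18t, and 1 count was found in cDC. All 5 libraries were above their cDC, and the log2 ratio was 8.19 (7.02 to 14.81). Il2ra, the alpha chain of the IL-2 receptor, whose promoter is printed above, was at 137 CPM, with 1 count in cDC, a log2 ratio of 6.37 with a lower bound of 5.19. Against all 315 gated cells the ratios of Socs2 (4.46), Il2ra (3.80), Il4i1 (5.52) and Ccl5 (5.19) were smaller and past 2-fold. H2-M2, a nonclassical class I gene whose promoter is also above, was at 356 CPM and differed by 5.98.

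NF-kappaB genes were higher for 8 of 10, with a median of 1.87. Relb, the subunit of the alternative pathway, was at 648 CPM in MRX, 554 in CTX and 536 in Combined, with 734 in ctxd18t, then 658 in combod18t, and at 41.3 to 88.0 CPM in cDC of the same libraries. The libraries did not overlap, and the log2 ratio was 3.14 (2.87 to 3.47). Rel and Nfkb2 differed by 1.89 (1.79 to 2.01) and 1.85 (1.47 to 2.29). Traf1, an adaptor of TNF receptors, differed by 2.17 (1.95 to 2.41). Rela (0.84) and Nfkbie (0.65) were the 2 that missed 2-fold, and median-of-ratios scaling takes Rela past it.

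Of a list of 13 genes tied to regulatory functions of mature dendritic cells, 9 were expressed and 6 were higher: Cd274, Pdcd1lg2, Cd200, Il4i1, the death receptor gene Fas and Socs2. Cd274 was at 415 CPM in MRX, 743 in CTX and 688 in Combined, with 631 in ctxd18t, then 491 in combod18t, detected in 75 of 80 cells, and its log2 ratio was 2.61 (2.37 to 2.88). With cells thinned to 3000 UMIs it was seen in 63 of 80 Ccr7 cells and 18 of 92 cDC. As a background, it was seen in 21.5% of 2023 thinned B cells gated by Cd79a. Pdcd1lg2 differed by 1.91 (1.51 to 2.38). Cd200, ligand of an inhibitory myeloid receptor, differed by 5.49 (4.70 to 7.09), but plasmacytoid-marked cells held it too, and against all 315 gated cells it differed by 1.72. Il4i1, an amino acid oxidase that T cells are sensitive to, was at 596 CPM, with 3 counts in cDC, and differed by 7.64 (6.67 to 10.50). Ido1 and Il10 had 0 counts in the 80 cells. Cd40, the receptor for help from T cells, differed by 2.62 (2.21 to 3.12).

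**Figure D2:**
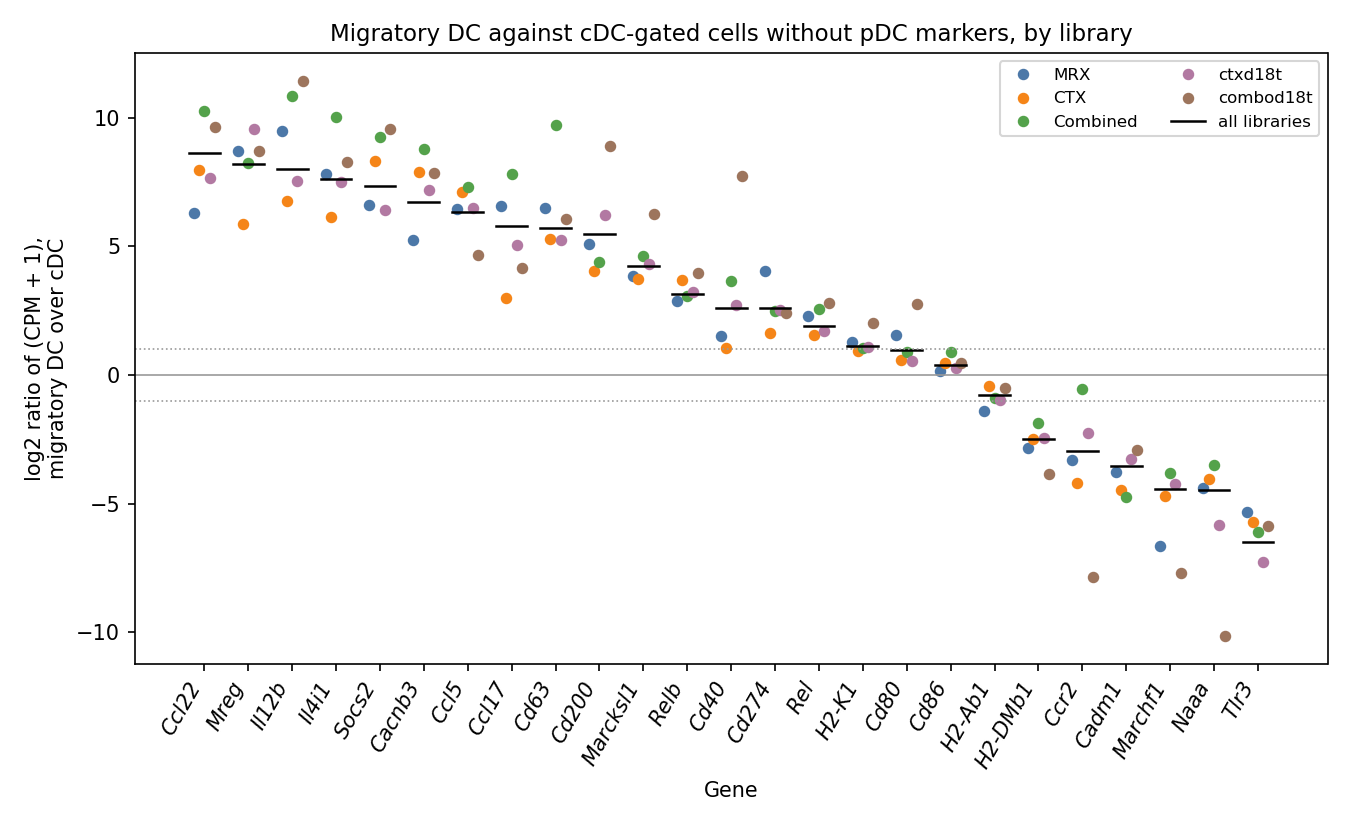
Log2 ratio of (CPM + 1) between the Ccr7 and Fscn1 dendritic cells and cDC for 25 genes, 1 point for each library and a black line for all libraries summed; dotted lines mark 2-fold. Points of Ccl22, Mreg, Relb and Cacnb3 lie above 2-fold in all 5 libraries, those of Cd86 lie below 2-fold in all 5, and those of Naaa and Tlr3 lie below zero in all 5.

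Cytokine genes divided. Il15 and its presenting receptor Il15ra, which together sustain natural killer and memory T cells, differed by 4.30 (3.44 to 6.09) and 5.43 (4.55 to 7.44). Of the 109 Il15 counts, 24, 16 and 15 were in single cells of ctxd18t. Against all 315 gated cells Il15 was higher in 4 libraries and lower in 1, combod18t (-1.30). Il12b, the p40 subunit of IL-12 and IL-23, had 1613 counts against 7 in cDC, with an interval of the log2 ratio from 7.23 to 9.59, while Il12a, the partner that completes IL-12, had 1 count and Il23a had 0. Il1b was close in both cell types (0.17, 0.09 to 0.26). That made 3 of 4 expressed genes of the cytokine list higher and none lower.

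Of the costimulation list 5 of 8 were higher, among them Tnfsf9 (2.33) and Icosl (2.11), and Havcr2 (-2.36) was lower. Genes induced by interferon gamma were higher for 6 of 8, with a median of 1.53, led by the guanylate-binding protein gene Gbp5 (3.17). The transcription factor Irf1 was at 1.60, though at 0.58 against all 315 gated cells. The 6 include Cxcl10, of which single cells held 21 of 35 counts in Combined and 43 of 44 in CTX. In the list of genes tied to type 2 responses 3 of 6 were higher, which were Il4i1, Ccl17 and Ccl22. Of 7 general dendritic cell genes Zbtb46 (1.88) was higher and the other 6 were within 2-fold.

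Of 10 class I presentation genes 4 were higher and the other 6 were within 2-fold, with a list median of 0.50. H2-K1 differed by 1.12 (1.04 to 1.21), H2-D1 by 1.02 (0.95 to 1.09), B2m by 1.05 (1.00 to 1.11), and Nlrc5, the transactivator of class I genes, by 2.85 (2.50 to 3.27). Against all 315 gated cells H2-K1 (0.54), H2-D1 (0.64) and B2m (0.75) missed 2-fold. In the class II list 0 of 10 were higher and 2 were lower. The 2 were subunits of H2-DM, which loads peptide: H2-DMb1 at -2.47 (-2.77 to -2.21) and H2-DMa at -1.14 (-1.36 to -0.92). H2-Ab1, the class II beta chain, was at 2757 CPM in MRX, 5017 in CTX and 3693 in Combined, with 3142 in ctxd18t, then 2841 in combod18t, each below the cDC of the same library. Its log2 ratio was -0.77 (-0.82 to -0.72), but 0.14 against all 315 gated cells, so its direction depends on the reference. H2-DMa was at -0.67 against those and would miss 2-fold under median-of-ratios scaling. Marchf1, a ubiquitin ligase that removes surface class II, was at 7.17 CPM against 176.

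Tlr3, the receptor for double-stranded RNA and among the lowest genes, had 0 counts in the 80 cells and 134 in cDC, which makes it at least 33.2-fold lower. Ppt1 (-5.01), a lysosomal thioesterase, and Naaa (-4.47), an amidase, followed, and the scavenger receptor Cd36 differed by -4.68 (-6.59 to -3.71). These genes were higher in cDC1-gated than in cDC2-gated cells: Ppt1 was at 973 CPM in those and 127 in cDC2-gated cells, and Naaa at 1211 and 244. The reference is 65 of 93 cDC1-gated, and against the cDC2-gated cells alone 446 genes were higher and 303 lower. Of the 8 expressed genes of the cDC1 list outside the gate, 6 were lower and none higher, and of 5 of the cDC2 list 3 were lower. The cDC1-gated cells were chosen by Xcr1 and Clec9a, so lower cDC1 genes also describe the choice of the reference. In the uptake list 3 of 5 were lower, which were Cd36, the mannose receptor Mrc1 (-3.20) and the lysosomal Cd68 (-1.69). Of the cell cycle list 2 genes, Pcna and Stmn1, could be compared and both were lower. Pcna was at -1.07 but at -0.86 against all 315 gated cells, and it would miss 2-fold under median-of-ratios scaling. Of 11 Toll-like receptor and adaptor genes Tlr3 alone reached the minimum.

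Ccr2, the receptor that brings precursors from blood, was at 40.3 CPM against 321 (log2 ratio -2.96, -3.47 to -2.55), and Itgb7, an integrin subunit, differed by -2.50 (-3.18 to -1.96). In the migration list, besides Ccr7 and Fscn1, 6 of 11 expressed genes were higher and 3 were lower. Cxcr4 was among the higher, at 1.36 (1.00 to 1.75), and at 0.96 against all 315 gated cells.

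Against all 315 gated cells the counts of several lists differed. In the maturation list 14 of 14 were higher, and in the costimulation list 7 of 8. In the class II list 2 of 9 were higher, H2-DMb2 (1.19) and H2-Oa (1.01), and 1 was lower, while 1 of 10 class I genes was higher. Of 9 general dendritic cell genes 4 were higher, Zbtb46, Dpp4, Batf3 and Id2, and Kmo was lower. In the regulatory list 6 were higher and Tgfb1 (-1.40) was lower. The other counts, higher and lower, were 8 and 0 of 10 for NF-kappaB, 4 and 1 of 8 for chemokines, 4 and 3 of 11 for migration, and 3 and 1 of 5 for cytokines. They were 4 and 0 of 10 for interferon gamma, 4 and 0 of 6 for type 2 responses, 1 and 5 of 7 for cDC1, 1 and 3 of 7 for cDC2, and 1 and 5 of 7 for uptake. Of the Toll-like receptor list Tlr7 (-5.57) alone reached the minimum there and was lower, and of the cell cycle list Pcna alone. In a list of 12 genes induced by type I interferon, 1 of 6 was higher and none lower against the 93 cDC, and 1 of 7 was higher and 1, Irf7 (-1.21), lower against all 315.

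The receptor that the study inhibits was barely detected in these cells at this depth. Mertk had 1 count in the 80 cells, and Tyro3 0, while Axl, the third receptor of the family, had 21 counts in 8 cells. Of the ligands, Gas6 had 1 count and Pros1 3. As a background, B cells gated by Cd79a held a Mertk count in 0.328% and an Axl count in 0.515% of 2137 cells, at a median of 5730 UMIs against 12687 in the Ccr7 cells. With cells thinned to 3000 UMIs Axl was seen in 2 of 80 Ccr7 cells (2.50%) and in 0.247% of B cells, and Mertk in 0 of 80 and 0.0989%. No gene of this family reached the minimum for a comparison.

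Within the 80 cells, class II RNA divided the population. H2-Ab1 in single Ccr7 cells ran from 0 to 12947 CPM, while the lowest of the 93 cDC was at 2747. Below 1000 CPM, a threshold chosen after the values were seen, lay 23 of the 80 Ccr7 cells and 0 of 93 cDC. They were 7 of 12 cells in MRX (58.3%, 27.7 to 84.8), 4 of 33 in CTX (12.1%, 3.40 to 28.2) and 2 of 10 in Combined (20.0%, 2.52 to 55.6). In ctxd18t they were 8 of 19 (42.1%, 20.3 to 66.5) and in combod18t 2 of 6 (33.3%, 4.33 to 77.7).

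CTX minus MRX was -46.2 points (-69.7 to -15.8), and it was -43.2 points (-67.1 to -12.4) when each cell was thinned to 3000 UMIs and cells under 3 H2-Ab1 counts were counted. Combined minus MRX was -38.3 points (-64.9 to 2.36). Between the cut and the lowest cDC at 2747 CPM lay CTX cells at 1161, 1417, 1694, 1802, 2112, 2323, 2413 and 2443 CPM. An MRX cell at 1350 CPM lay there too. A cut at the lowest cDC would count these as low, so the size of the CTX minus MRX difference depends on the cut. No other cut was tried. The low cells had a median of 13510 UMIs against 12388 in the other 57. Within libraries the low cells had fewer in MRX (8175 against 9480) and Combined (7732.5 against 12924), and more in the other 3. The part of depth in the split was not tested beyond the thinned value.

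Relb, Cacnb3 and Cst3 were detected in 23 of 23 low cells, Cd274 in 20 and Zbtb46 in 20. A Cd274 count was also seen in 33.0% of 2137 B cells, at a median of 5730 UMIs. For Relb, Cacnb3, Cst3 and Zbtb46 no such background is given. H2-K1 was at 3249 CPM in the low cells against 2608 in the other cells. T cell genes without the Cd3 genes summed to 28.0 CPM in them and 52.9 in the other 57, and natural killer cell genes to 83.9 and 6.30, with none in 21 of the 23. Cd86 was lower in them (392 against 895 CPM), and so was Il4i1 (308 against 713). Ccl5 was at 6295 CPM against 748 and Epsti1, an interferon-inducible gene, at 4421 against 450. Il15 was at 258 CPM against 32.7 and Il15ra at 395 against 101. Ciita, the class II transactivator, had 0 counts in the 23 cells and Havcr2, which encodes TIM-3, also had 0. Myeloid genes moved with the split: Lyz2 was at 24.9 CPM against 1344, Cebpb at 28.0 against 261, and Mgl2 and Cd209a had 0 counts in the low cells. None of the 9 Lyz2-rich cells was among the 23, and without them Ccl5 was at 930 CPM in the other 48, Epsti1 at 481, Il15 at 34.0 and Il15ra at 109.

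Ccl5 was higher in the low cells of each library. Ccl5 in low and other cells was at 4778 and 908 CPM in MRX, 6337 and 753 in CTX, 11381 and 1598 in Combined, 8257 and 428 in ctxd18t, and 411 and 118 in combod18t. Epsti1 in low and other cells was at 1981 and 161 CPM in MRX, 3135 and 350 in CTX, 3168 and 383 in Combined, 7100 and 779 in ctxd18t, and 974 and 192 in combod18t. The library ctxd18t held 1055 of the 1422 Epsti1 counts of the low cells, and without it they were at 2120 CPM against 322. Without it Il15 was at 121 against 24.5 and Lyz2 at 46.2 against 1042, and without Combined Cebpb was at 22.9 against 118. Of the genes that chose the cells, Fscn1 was at 2959 CPM in all low cells and 1144 in the others, and Ccr7 at 2406 and 2606. Since the groups were cut on H2-Ab1, these are descriptions.

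Across the 80 cells, taken within libraries, Spearman's rho with H2-Ab1 was 0.93 for H2-Eb1, 0.92 for Cd74 and 0.63 for Ctss, genes of the same presentation pathway. It was -0.67 for Ccl5, the lowest of 2330 genes, -0.60 for Epsti1 and Il15ra and -0.49 for Cacnb3, and near zero for Cd274 (-0.01). The cells share libraries and the values share each cell's depth, so no p is given.

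**Figure D3:**
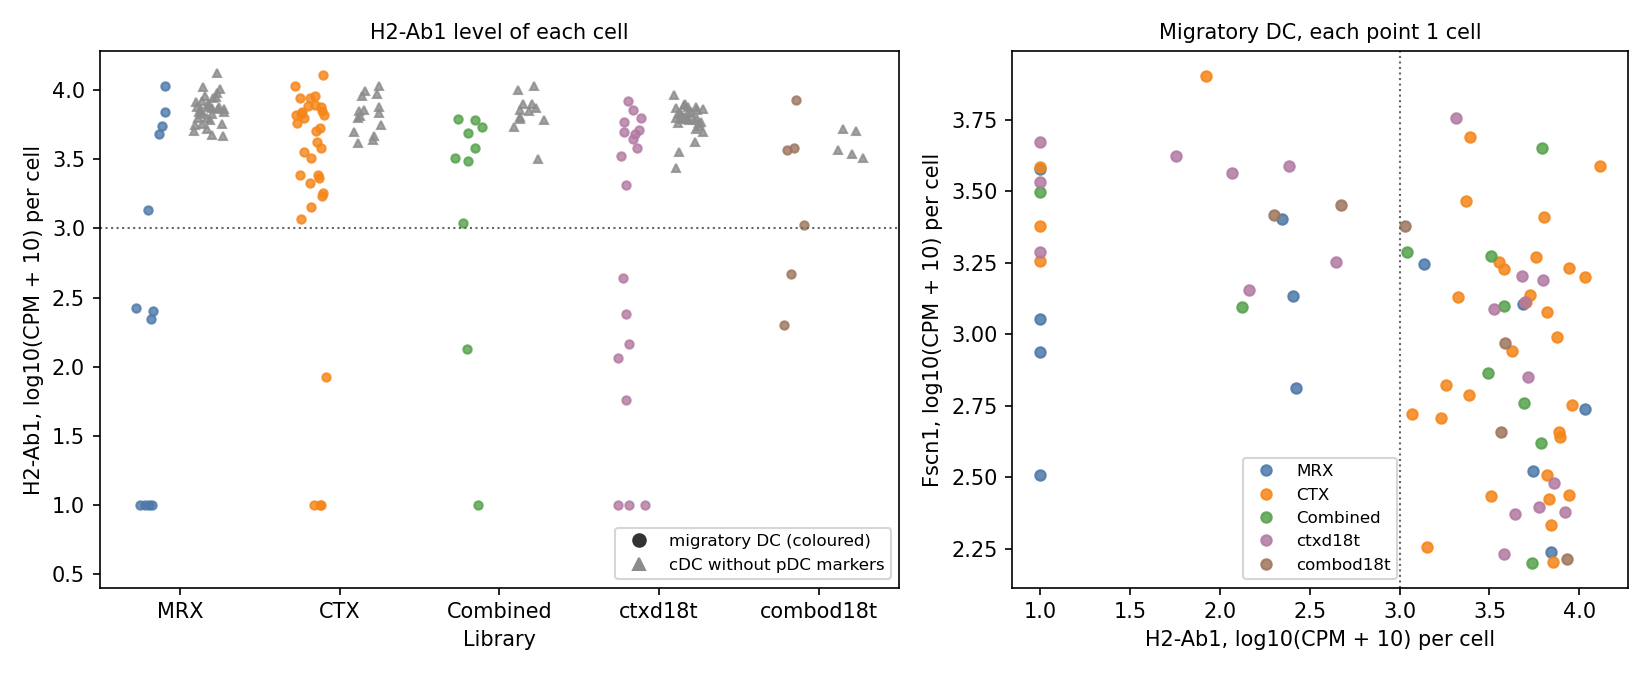
Left, H2-Ab1 in each cell as log10(CPM + 10), by library, for Ccr7 and Fscn1 dendritic cells (coloured circles) and cDC (grey triangles); the dotted line is 1000 CPM. Right, Fscn1 against H2-Ab1 in the 80 cells on the same scale. Below the line lie 23 circles and 0 triangles; Fscn1 was used to choose the cells, so the right panel is a description.

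**Figure D4:**
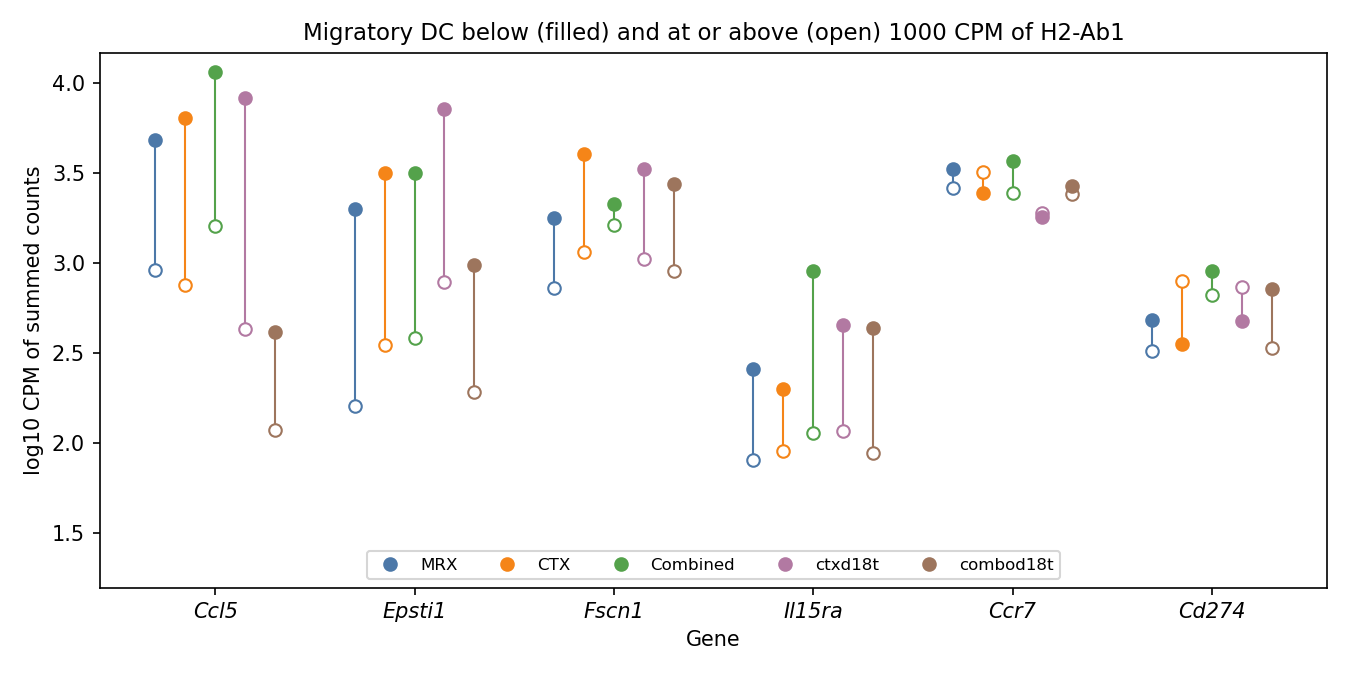
Level of 6 genes as log10 CPM of summed counts in Ccr7 and Fscn1 dendritic cells below 1000 CPM of H2-Ab1 (filled) and at or above it (open), with a line for each library. Ccl5, Epsti1 and Il15ra are higher in the low cells in all 5 libraries and Cd274 in some; Fscn1 and Ccr7 were used to choose the cells and are shown as a description.

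Il12b had 1613 counts in 30 cells, and the 5 highest held 69.9% of them. At least 10 counts were found in 3 cells of MRX, 1 of CTX, 2 of Combined, 6 of ctxd18t and 3 of combod18t, with up to 348 in 1 cell of ctxd18t. None of 2137 B cells had an Il12b count. Among the 2023 of them deep enough to thin to 3000 UMIs, the floor of 3 counts of the total is 0.148%. The exact binomial upper limit of the share of cells with a count was 0.182%. As summed levels, Il12b was at 709 CPM in MRX, 109 in CTX and 1832 in Combined, with 2484 in ctxd18t, then 2771 in combod18t. CTX was the lowest, and with cells thinned to 3000 UMIs a count was seen in 4 of 33 cells of CTX against 5 of 12 of MRX, a difference of -29.5 points (-56.9 to -2.52). Without thinning the shares were 27.3% and 41.7% and the interval of their difference, -14.4 points (-43.5 to 13.6), holds 0.

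Cells with at least 10 Il12b counts, 15 in all, had Ccl22 at 1119 CPM against 170 in the other 65, and Ccl17 at 1177 against 244. Without the 1 Combined cell with most Ccl17 they were at 676 and 131 CPM, so Ccl22 stayed above the other cells and Ccl17 was below them. Ccl22 and Il12b were seen together in 21 cells, and Ccl22 with Ccl17 in 23. Xcr1, the chemokine receptor of cDC1, was seen in 3 cells, and all 3 held Il12b. Cd209a was seen in 9 cells, of which 1 held Il12b. A count by narrow sets of cDC1 and cDC2 markers left out Irf8 and Sirpa. By it, 4 cells held cDC1 markers only, 21 cDC2 markers only, 3 both and 52 neither. Of the longer cDC1 and cDC2 lists above, Irf8 was detected in 57 and Sirpa in 25 of the 71 cells under 20 Lyz2 counts. The count thus depends on the markers used and assigns no origin to the cells.

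**Figure D5:**
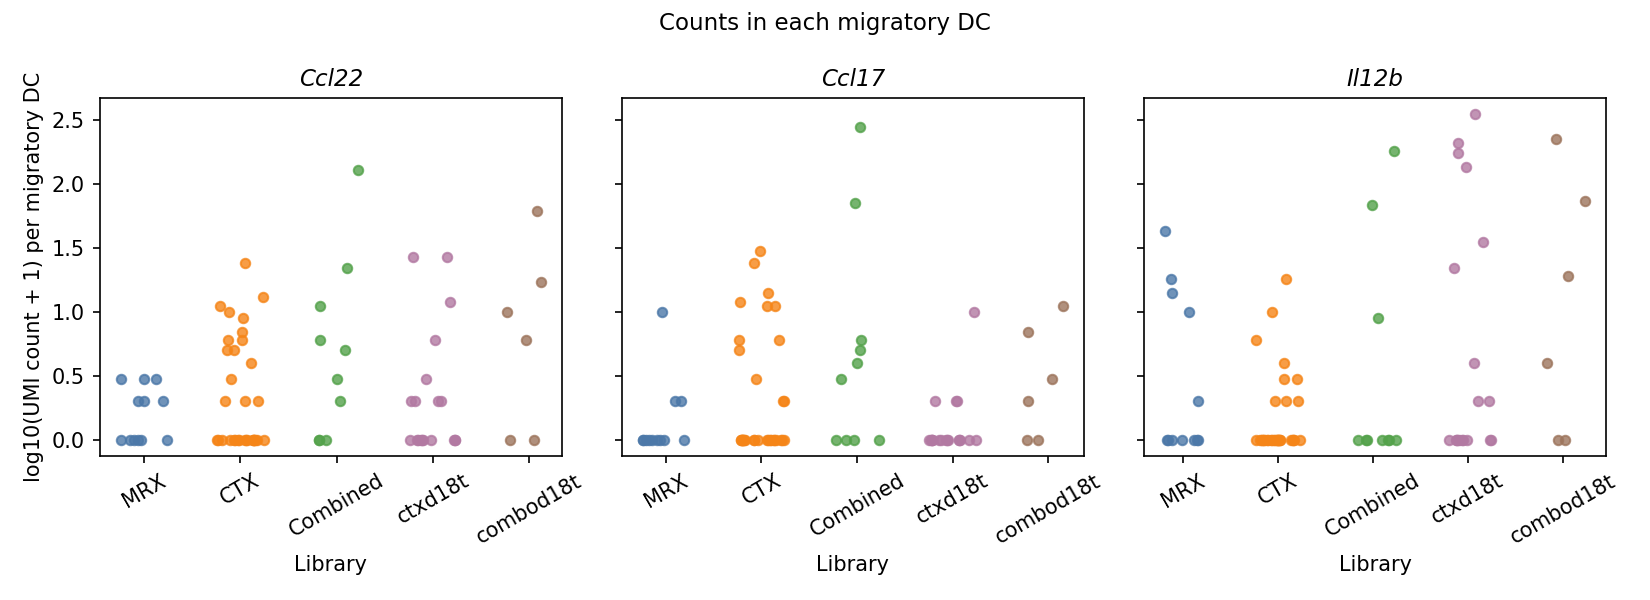
Ccl22, Ccl17 and Il12b counts in each of the 80 cells as log10(UMI count + 1), by library. In each panel most cells lie at or near zero and few lie high: 1 Combined cell has 276 Ccl17, 128 Ccl22 and 178 Il12b counts, and 1 ctxd18t cell has 348 Il12b counts.

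The 9 cells with at least 20 Lyz2 counts differed from the other 71. They held more Ccr2 (198 CPM against 10.7), Itgam (147 against 2.13), Cebpb (809 against 77.7) and Cd209a (334 against 10.7), genes of monocytes and cDC2. They held less Ccl5 (113 against 2768), Mreg (158 against 545) and Cd200 (73.6 against 288). Leaving them out gave 522 genes higher and 704 lower than cDC.

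CXCL9, named in the title of the series, is a CXCR3 ligand induced by interferon gamma. Cxcl9 in the Ccr7 cells had 1 count in MRX and 0 in combod18t, and was at 321 CPM (266 to 383) in CTX, 941 (786 to 1118) in Combined and 129 (95.5 to 172) in ctxd18t. A count was seen in 1 of 12, 18 of 33, 8 of 10, 6 of 19 and 0 of 6 cells of MRX, CTX, Combined, ctxd18t and combod18t. CTX exceeded MRX by 46.2 points (14.5 to 63.3) and Combined exceeded MRX by 71.7 points (30.5 to 87.5). With cells thinned to 3000 UMIs the shares were 0 of 12, 11 of 33 and 7 of 10 in MRX, CTX and Combined, and CTX exceeded MRX by 33.3 points (5.54 to 50.4).

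In B cells, a measure of free RNA, 1.79% of cells in MRX, 1.78% in CTX and 1.92% in Combined had a Cxcl9 count, far below the Ccr7 cells of CTX and Combined. Its level in B cells was 8.88 CPM in MRX, 40.5 in CTX and 17.5 in Combined, so this background also differed between the libraries. Over all libraries and with cells thinned to 3000 UMIs the share of B cells was 0.939%. The cDC of the same libraries were at 34.2, 680 and 211 CPM, so Combined was the only one of these 3 where the Ccr7 cells were above the cDC. Over all libraries the log2 ratio of Cxcl9 to cDC was 0.35 (0.12 to 0.58), below 2-fold, and it was lower than in cDC in 3 libraries.

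The library labelled Combined was set against CTX gene by gene over 10 and 33 cells. The median log2 ratio was -0.02 over 2118 genes. At least 2-fold higher in Combined were 78 genes (3.68%), and at least 2-fold lower 113 (5.34%). The balance turned with the minimum count: with none, 388 of 3662 genes were higher and 288 lower, and with double the minimum 36 of 1087 were higher and 34 lower. The interval excluded 0 for 172 of these 191, for counting error only.

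Il12b differed by 4.06 (3.59 to 4.59), Ccl17 by 3.10 (2.80 to 3.42) and Ccl22 by 2.31 (1.94 to 2.69). Il12b was detected in 3 of 10 cells in Combined and 9 of 33 in CTX, and 1 Combined cell held 178 of its 253 counts there. Without the highest cell on each side these were 3.22, 1.58 and 0.88, so 1 Combined cell carried much of each. That cell, with 34 Lyz2 counts, is among the Lyz2-rich cells, and without all Lyz2-rich cells the ratios were 3.04, 1.73 and 0.90. Icam1, the adhesion ligand of T cell integrins, was at 2.26, at 2.37 without the highest cells and at 1.94 without the Lyz2-rich cells. Nfkbia (1.16) and Cxcl9 (1.55) missed 2-fold without the Lyz2-rich cells, at 0.79 and 0.74. Icam1 was detected in 8 of 10 cells in Combined and 14 of 33 in CTX. Of 8 expressed genes of the interferon gamma list 5 were higher and none lower. Without the Lyz2-rich cells Socs1 (1.34) stayed at least 2-fold higher, Gbp2 (0.28), Gbp4 (0.85) and Cxcl9 were within 2-fold and Cxcl10 (-6.96) turned lower. For Cxcl10, 1 cell held 43 of the 44 CTX counts, and without the highest cell on each side its ratio was 4.91. Of the 9 class II genes none differed 2-fold.

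Lyz2 was 1.94 (1.69 to 2.20) higher in Combined, and Cebpb 2.36 (1.93 to 2.81), and they moved with the 3 of 10 Lyz2-rich cells of Combined against 2 of 33 of CTX. Without those cells Lyz2 was at -0.21, Cebpb at -2.14 and Il1b at -0.49 (1.03 with them). Cxcl10, seen in 2 cells of each library and in CTX almost wholly in 1 of them, was at -6.96 (1.11 with them). Of the lower genes, Map3k14, the kinase of the alternative NF-kappaB pathway, differed by -1.51 (-2.34 to -0.79), Havcr2 by -1.59 (-3.32 to -0.29; -0.98 without the Lyz2-rich cells) and Tcf4 by -1.48 (-2.37 to -0.71). AY761185 differed by -3.05 (-3.91 to -2.32), and S100a8 and S100a9 came almost wholly from 1 CTX cell. No gene comparison was made between ctxd18t and combod18t, since combod18t held 6 cells and the minimum was 10.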

How the data were processed

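Single cells were captured with the 10x Chromium 3' V4 on-chip multiplexing kit, per the labels' protocols, and the deposited matrices hold UMI counts from Cell Ranger 9.0.1 over 33696 features. The submitters' processing notes name GRCm39 and Seurat 5.2.0. The protocol gives barcode sets for Combined, CTX, MRX and VC, and none for the libraries named for day 18. The counts of VC were not analysed here.

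Cells with at least 200 genes and at most 15% mitochondrial counts were kept. The members, gene lists, comparisons and named genes were chosen with earlier results of these data known. Named genes were the 12 highest and 12 lowest of the expressed genes with the same direction in 5 of 5 libraries, the 6 each way between libraries, list genes and a panel of 31. Raw counts were summed over cells, and log2 ratios of CPM with a pseudocount of 1 were formed. Intervals are exact Poisson or binomial, or Newcombe for differences, at 95%, and exact conditional binomial for ratios, and cover counting error only. A floor is 3 counts. The ratio step was tested on simulated counts. Leaving out plasmacytoid-marked cells was chosen after seeing the data, as were the splits by H2-Ab1, Il12b and Lyz2, the alternatives that use them or leave out the cell with most Ccl17 or a library, and the marker sums without gating genes. Doublets were scored with Scrublet in scanpy 1.11.5 and none was removed. Python 3.11.15, numpy 2.4.6, scipy 1.17.1 and pandas 2.3.3 were used. Results for a few list genes are not reported here.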

Additional observations from a re-analysis of the deposited data

How the results depend on the processing

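No paired analysis was possible because each label has 1 library, so contrasts between labels have no pairs. The Ccr7 cells and the dendritic cells set against them come from the same 5 libraries, and as a mean of the log2 ratios within libraries 520 genes were higher and 1110 lower than all 315 gated cells. The interval of combod18t minus ctxd18t in the share of kept cells excluded 0 under all 6 alternatives tried, and those of CTX minus MRX and Combined minus MRX held 0 in all. CTX minus MRX went from 0.150 to 8.68e-05 points under the gate with no T, B or C1q count. That of Combined minus CTX excluded 0 only with a Ccr7 and Fscn1 minimum of 1 count (-0.237, -0.437 to -0.00728). Genes past 2-fold against all 315 gated cells were 1490, and 842 with cells thinned to 3000 UMIs, where 2401 genes could be tested. Median-of-ratios scaling gave 710 higher and 661 lower in place of 547 and 943. Leaving out 1 library at a time gave 1426 to 1529. Against the 93 cDC they were 1124, from 794 to 1042 with 1 library left out, lowest without ctxd18t, and 749 against the 28 cDC2-gated cells alone. Between Combined and CTX they were 191, against 40 with thinned cells, 70 with double the minimum count and 676 with none.

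Of genes past 2-fold in their main value, directions turned in 12 of 1411 recomputed values, and of genes within 2-fold, H2-Ab1 among them, in 36 of 357. The 12 were these. Mgl2, 1.03 against all 315 gated cells, was -0.025 against the 93 cDC, -0.15 under the gate with no T, B or C1q count and -0.50 as a mean over libraries. Grm8, Mctp2 and Cd8b1, at -7.62, -7.18 and -7.18 against all 315 on 2 to 5 counts in the Ccr7 cells, were 1.48, 1.23 and 1.48 against the 93 cDC. Between Combined and CTX under the gate with no T, B or C1q count, Cebpb was -3.23 and Lyz2 -0.39. Without members of at least 20 Lyz2 counts Il1b was -0.49, Cebpb -2.14, Cxcl10 -6.96 and Lyz2 -0.21. The causes were not tested. Genes were not compared between ctxd18t and combod18t, since combod18t held 6 cells and a minimum of 10 had been set. Depth limits the libraries with fewest counts most: 3 counts are 26.3 CPM over the 6 combod18t cells, 25.9 over the 12 of MRX and 21.7 over the 10 of Combined.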
